A study of Mus musculus with 6 samples.

Results

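Small nucleolar RNAs and small Cajal body RNAs were compared in livers of 6 CREB-H knockout mice. CREB-H is a transcription factor of hepatocytes held in the endoplasmic reticulum membrane until it is cleaved. The members are all genes whose symbol in the array's annotation begins with Snord, Snora or Scarna and whose probe set carries that 1 symbol, with the brightest probe set taken where a gene had several. There were 78 such genes among 22180 measured genes with 1 symbol: 47 Snord, 26 Snora and 5 Scarna. A further 46 probe sets list such an RNA together with another gene and are not members. Values of some of them are given below. All mice were 8 weeks old, carried the knockout allele Creb3l3tm1.1Sad/J and were kept on a normal diet. The control group of 3 mice received a liver-directed adeno-associated virus with green fluorescent protein (AAV-GFP, called GFP here), and the test group of 3 mice received the same kind of virus with the active form of the factor (AAV-CREB-H-ΔTC, called CREB-H here). Livers were taken 2 weeks after the injection, and total RNA of each was hybridised to 1 array. The sources used here do not give the vector's promoter or the cells it reached. The labels call the arrays biological replicates. Precision is limited by having 3 arrays per group.

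Small nucleolar RNAs guide the chemical modification and cleavage of ribosomal RNA. Box C/D RNAs (Snord) direct ribose methylation with the proteins fibrillarin, Nop56, Nop58 and Snu13, and H/ACA RNAs (Snora) direct pseudouridylation with dyskerin, Nop10, Nhp2 and Gar1. Small Cajal body RNAs (Scarna) use the same boxes on spliceosomal RNAs. In mammals most of them are cut from introns of host genes, many of which encode ribosomal proteins, ribosome assembly factors or noncoding RNAs of the Snhg family. Several box C/D RNAs from introns of Rpl13a have been linked to lipotoxic stress, and the H/ACA RNA U17 (Snora73) to cholesterol trafficking, both of interest in a liver that handles lipid under CREB-H.

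Creb3l3, the gene that was supplied, had a log2 signal of 6.55, 5.93 and 6.40 in the GFP arrays and 6.73, 7.25 and 7.58 in the CREB-H arrays, a log2 fold change of 0.89 (SE 0.25, limma adjusted p = 0.647) without overlap. Signals on the 6 arrays ran from 1.42 to 13.9 and array medians from 4.98 to 5.01. Replicate 3 of each group carried Y-linked signal (means of Uty, Kdm5d and Eif2s3y of 7.83 and 7.67, against 3.15 to 3.39 on the other 4 arrays). Values on those 4 arrays are given mainly for members that moved by over 1.5 times there. They are not given for every member described. All 8 hepatocyte markers were measured, with mean signals between 12.5 and 12.7 on every array. The 6 Kupffer cell markers were all higher with CREB-H, by 0.33 to 0.60 on the log2 scale, but their mean signal overlapped between the groups (7.64 to 9.0 with GFP, 8.22 to 9.16 with CREB-H). Mean signals lay between 8.94 and 9.31 for 5 endothelial markers and 7.84 and 8.26 for 5 stellate cell markers. They lay between 4.77 and 5.01 for 4 cholangiocyte markers, 4.99 and 5.28 for 4 lymphocyte markers, and 4.95 and 5.09 for 4 neuronal genes. Higher with CREB-H were 4 of 5 endothelial, 4 of 5 stellate, 3 of 4 cholangiocyte and 3 of 4 lymphocyte markers (medians of 0.17, 0.21, 0.19 and 0.02). So were 5 of 8 hepatocyte markers, 1 of 4 neuronal genes and 19154 of all 41345 probe sets. Krt19 (0.38, SE 0.12) and Sox9 (-0.36, SE 0.11), both cholangiocyte markers, went opposite ways. The part of these cells in the results below was not tested. In whole liver, fewer cells of a type and less RNA per cell cannot be told apart.

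Most small nucleolar RNAs read slightly lower with CREB-H, and no single RNA passed the test over the whole array. Of the 47 box C/D RNAs 39 had a log2 fold change (CREB-H minus GFP) below 0, with a median of -0.11 and a middle range from -0.25 to -0.03. Of the 26 H/ACA RNAs 18 were below 0, with a median of -0.06 and a middle range from -0.19 to 0.06. The 5 Cajal body RNAs were divided, 2 below and 3 above 0, with a median of 0.01. With 1 array left out, the number below 0 ran from 33 to 41 for box C/D RNAs, from 14 to 20 for H/ACA RNAs and from 0 to 4 for Cajal body RNAs. It was 14 of 26 for H/ACA RNAs without GFP replicate 1 or CREB-H replicate 2. For Cajal body RNAs it was 0 without GFP replicate 1 or CREB-H replicate 3, and 4 without either other GFP array. On the 4 arrays without Y-linked signal it was 32, 17 and 4. Over all 41345 probe sets 53.7% were below 0 and the median was -0.015. Among the 20672 brighter probe sets 51.5% were below 0, and of the members among them 37 of 44 box C/D and 16 of 24 H/ACA RNAs were. For comparison, 483 microRNA genes on the array had a median of -0.04, with 289 below 0. These shifts are small: 58 of the 78 members differed by less than 0.25 in either direction, as did 32833 of all 41345 probe sets. The median standard error (SE) of a member was 0.146.

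**Figure D1:**
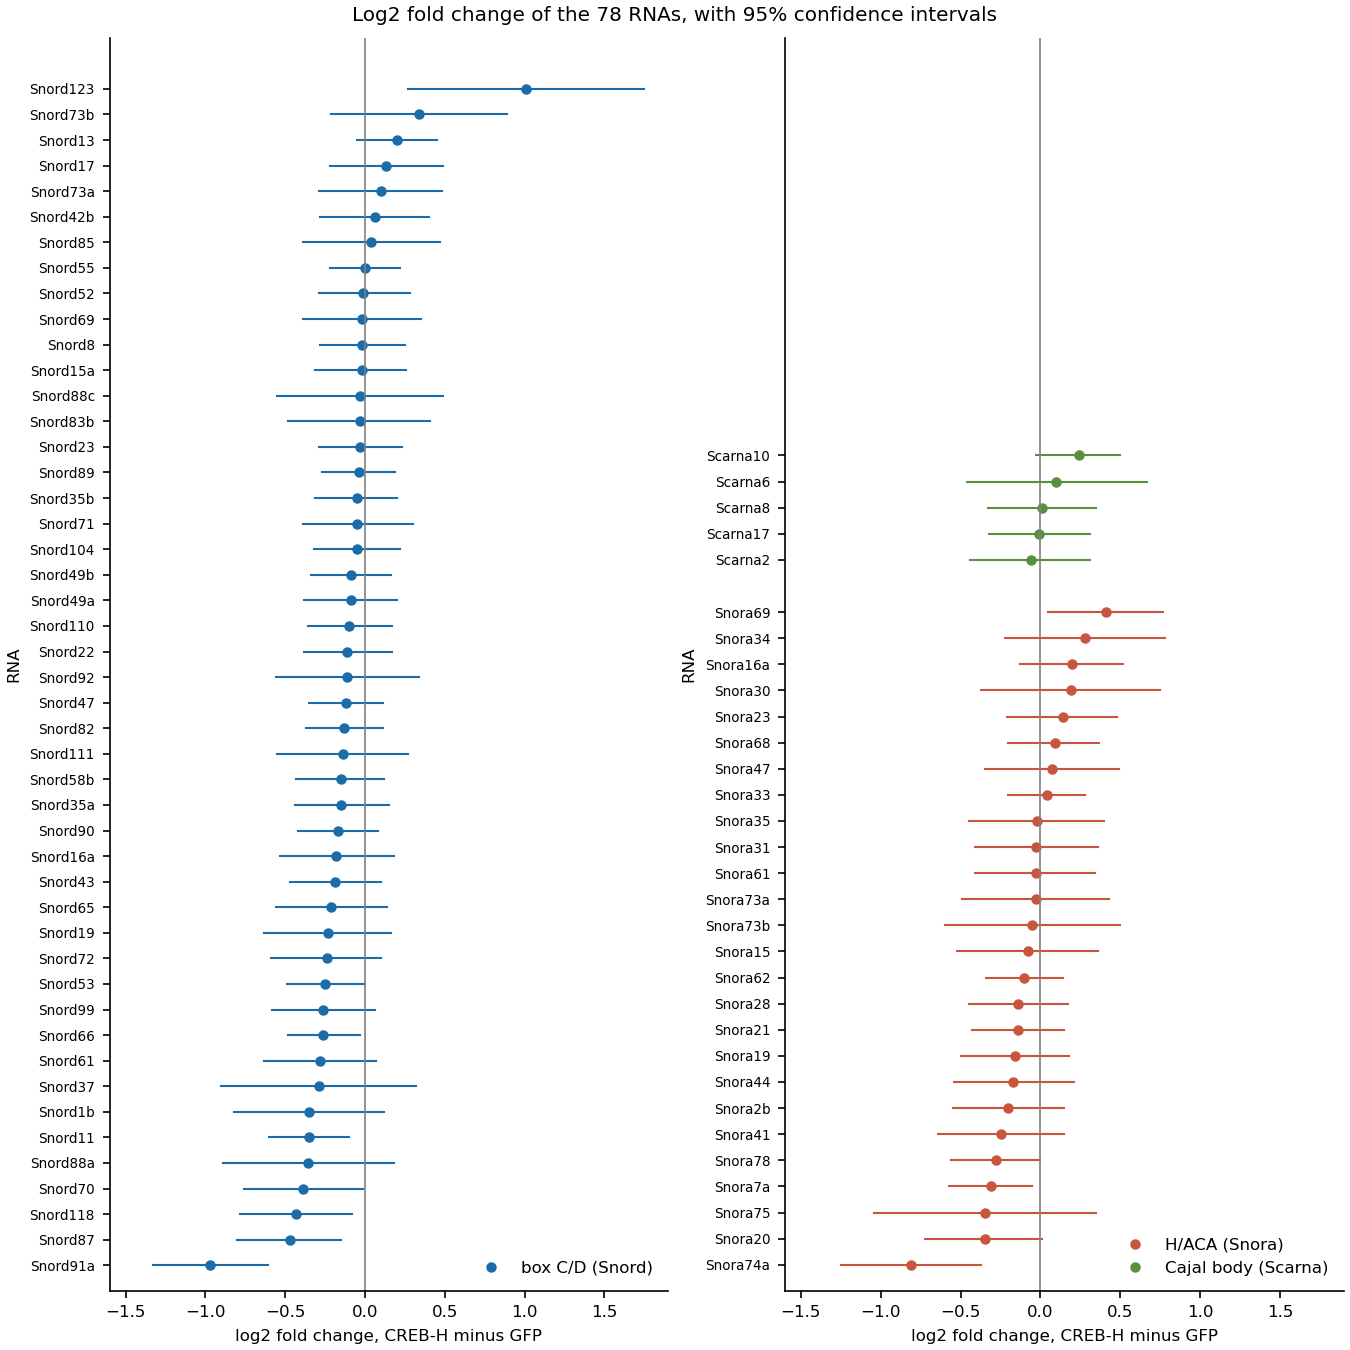
Log2 fold change, CREB-H minus GFP, of each of the 78 RNAs (points, n = 3 arrays per group) with its 95% confidence interval from limma (lines), box C/D at left, H/ACA and Cajal body at right. Of 47 box C/D points 39 lie left of 0, and Snord91a (-0.97), Snora74a (-0.81) and Snord123 (1.01) lie farthest out.

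None of the 78 members passed limma's test after Benjamini-Hochberg adjustment over all probe sets, where 0.00484% of probe sets passed in either direction and 0.00242% passed lower. At an unadjusted p below 0.05 limma gave 9 members lower and 2 higher. The 9 lower ones were 7 of 47 box C/D RNAs (14.9%) and 2 of 26 H/ACA RNAs (7.69%), against 3.97% of all probe sets lower at that threshold and 4.25% of the brighter ones. The higher ones were 1 box C/D and 1 H/ACA RNA, against 2.93% of all probe sets higher. The lower count was 4 with CREB-H replicate 3 left out. It was 5 when the first array of either group, or the third of GFP, was left out. The share of all probe sets lower at that threshold was between 3.30% and 4.14% in these 4 fits. On the 4 arrays without Y-linked signal the lower count was 3 of 78, against 4.33% of all probe sets, so the members' share was not above the background there. All 3 GFP arrays lay above all 3 CREB-H arrays in 11 box C/D and 3 H/ACA RNAs (23.4% and 11.5%, against 7.10% of all probe sets and 7.48% of the brighter ones), and the reverse held in 2 box C/D RNAs and 1 Cajal body RNA, against 5.23%.

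The difference between the classes changed sign with the arrays used. The H/ACA median lay 0.05 above the box C/D median. The gap was -0.01 when either GFP replicate 2 or the third CREB-H array was left out, 0.12 when CREB-H replicate 2 was, and -0.04 on the 4 arrays without Y-linked signal. The box C/D median was below 0 in each of these fits, between -0.15 and -0.08 with 1 array left out and -0.06 on the 4 arrays. The H/ACA median was lowest with GFP replicate 2 left out (-0.17) and highest with GFP replicate 1 left out (-0.01). Between the 2 arrays with Y-linked signal the box C/D median was -0.19 and the H/ACA median -0.05.

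The arrays of a group differed among themselves by as much as the groups did. Each RNA was set against its own mean over the 6 arrays, and the median of these deviations was taken. For box C/D RNAs it was 0.13, -0.04 and 0.11 in the GFP arrays and -0.02, -0.01 and -0.09 in the CREB-H arrays. GFP replicate 2 thus lay below CREB-H replicates 1 and 2, and the groups overlapped. For H/ACA RNAs the deviations were 0.16, -0.13 and 0.03 with GFP and 0.02, -0.11 and 0.00 with CREB-H. GFP replicate 1 stood highest in all 3 classes and held the highest value of 38 of the 78 members. For microRNA genes the same measure stayed between -0.03 and 0.02, and for all probe sets between -0.01 and 0.01. The microRNA genes are dim, with mean signals of 4.04 to 4.12 against 8.05 to 8.27 for the members. Normalization holds the median of all probe sets near 0. Of other sets, 8 other structural small RNAs ran from -0.17 to 0.15 and 18 noncoding host genes from -0.20 to 0.11. The 14 assembly and Cajal body factors ran from -0.04 to 0.06. A spread between arrays was thus not particular to the members.

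**Figure D2:**
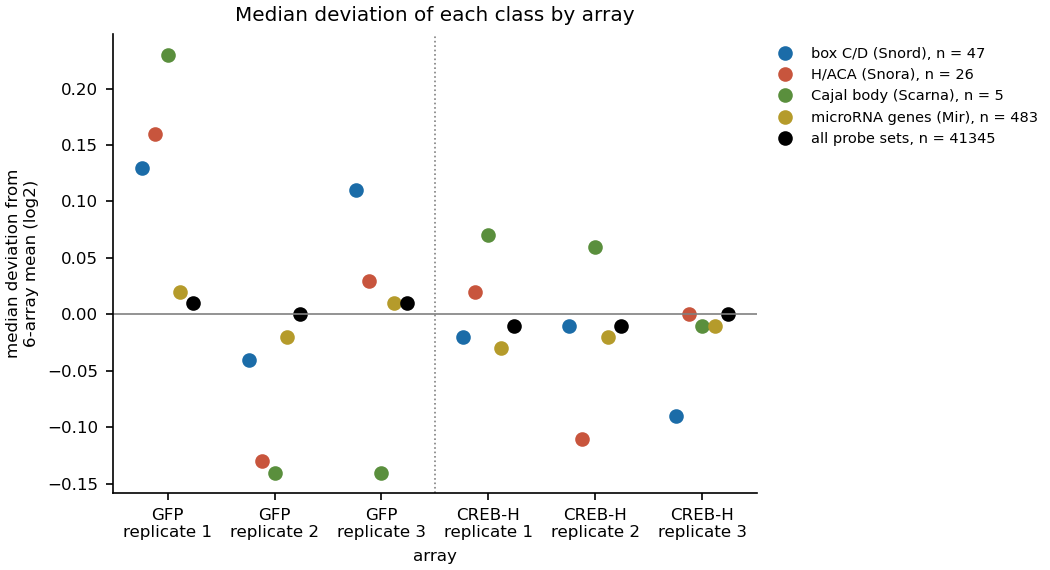
Median deviation (log2) of each class from its own 6-array mean, by array, with the GFP arrays left and the CREB-H arrays right of the dotted line. Box C/D, H/ACA and Cajal body RNAs all stand highest in GFP replicate 1 (0.13, 0.16 and 0.23). The microRNA genes, which are dim (mean signals of 4.04 to 4.12), and all probe sets stay within 0.03 of 0. Normalization of the arrays holds the median of all probe sets there.

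Among the box C/D RNAs, Snord91a had the lowest unadjusted p. Its signal (probe set 17252845, Entrez 100217469) was 5.22, 5.21 and 4.93 with GFP and 4.27, 4.30 and 3.90 with CREB-H. The groups were well apart, each array of CREB-H lying below every array of GFP. The log2 fold change was -0.97 (SE 0.15, 95% interval -1.33 to -0.61), which is 1.96-fold lower, and the limma adjusted p was 0.555. On the 4 arrays without Y-linked signal the fold change was -0.94. The signal was dim: every CREB-H array and GFP replicate 3 read below the array medians of 4.98 to 5.01. Snord91a was not among the 44 brighter box C/D RNAs, where the lowest log2 fold change was -0.47. Snord91a lies within the spans of Tsr1, a ribosome assembly factor, and Srr, the serine racemase gene. Srr itself differed by 0.11 (SE 0.22), and Tsr1 had no probe set of its own symbol. A probe set that lists both Snord14e and Hspa8, and so is no member, differed by more than any member (-1.03, SE 0.15). It read 9.30, 9.51 and 9.76 with GFP and 8.33, 8.52 and 8.64 with CREB-H, with a limma adjusted p of 0.515. This was the largest difference of the 46 probe sets left out. The largest rise among them was 0.31 (SE 0.21), in 1 that lists Snora70.

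Snord87 lies within the spans of Snhg6, a noncoding host gene, and Mcmdc2, a gene of meiotic recombination. Its arrays read 10.83, 10.71 and 11.06 with GFP and 10.47, 10.49 and 10.22 with CREB-H, a log2 fold change of -0.47 (SE 0.14, limma adjusted p = 0.647). The groups did not overlap, and GFP replicate 3 and CREB-H replicate 3 were the farthest apart. Without both of these arrays the fold change was -0.29. Mcmdc2 differed by -0.06 (SE 0.14) and Snhg6 by -0.37 (SE 0.16), Snhg6 with arrays of 9.07, 8.82 and 8.79 against 8.79, 8.49 and 8.29.

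Snord11 and Snord70 lie in Nop58, the gene of a core protein that box C/D RNAs bind. Snord11 read 8.19, 8.02 and 8.10 with GFP and 7.84, 7.77 and 7.65 with CREB-H, a log2 fold change of -0.35 (SE 0.11, limma adjusted p = 0.647). Snord70 read 9.46, 9.17 and 9.20 with GFP and 8.87, 9.14 and 8.65 with CREB-H (-0.39, SE 0.16). Both RNAs were lower in every CREB-H array than in any GFP array, though for Snord70 the nearest arrays were only 0.03 apart. The Nop58 probe set differed by -0.62 (SE 0.24), from 9.21, 8.85 and 8.24 to 8.32, 8.09 and 8.04. Its groups overlapped through GFP replicate 3, and the difference ran from -0.88 with that array left out to -0.40 with GFP replicate 1 left out.

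Snord118, the U8 RNA, is needed to make the RNAs of the large ribosomal subunit, and no gene of the reference table spans it. It read 7.64, 7.52 and 7.37 with GFP and 7.28, 7.11 and 6.84 with CREB-H, without overlap (-0.43, SE 0.15, limma adjusted p = 0.686). Snord13, the U13 RNA of small-subunit maturation, also stands outside other genes and lay the other way. Its arrays were 9.61, 9.46 and 9.59 with GFP against 9.86, 9.74 and 9.67 with CREB-H, a log2 fold change of 0.20 (SE 0.11, limma adjusted p = 0.794). Scarna2, which guides modification of U2 spliceosomal RNA and also lies in no other gene, differed by -0.06 (SE 0.16), or -0.12 on the 4 arrays without Y-linked signal, and Snord89, also in no other gene, by -0.04 (SE 0.10). The 4 RNAs outside other genes thus had no common direction beyond their errors.

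Snord66, in Eif4g1, had the closest replicates of the lowest-p box C/D RNAs, with arrays of 8.71, 8.62 and 8.72 against 8.46, 8.38 and 8.44 (-0.26, SE 0.09, limma adjusted p = 0.693). Snord53, in Wdr43, differed by -0.25 (SE 0.10) without overlap.

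Snord123 was the one box C/D RNA higher with CREB-H at an unadjusted p below 0.05, and its size rested on 2 arrays. It lies in the noncoding gene Snhg18. Its arrays read 4.98, 5.07 and 4.74 with GFP and 6.05, 5.24 and 6.53 with CREB-H, a log2 fold change of 1.01 (SE 0.31, 95% interval 0.27 to 1.75, limma adjusted p = 0.647). CREB-H replicate 2 lay 0.17 above the highest GFP array, and the other two CREB-H arrays were further up. The fold change was 0.72 without CREB-H replicate 3 and 0.62 on the 4 arrays without Y-linked signal. Snhg18 read 4.81, 4.75 and 4.47 against 4.59, 4.82 and 5.76 (0.38, SE 0.30), a difference that was 0.03 without CREB-H replicate 3 and -0.07 on those 4 arrays.

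**Figure D3:**
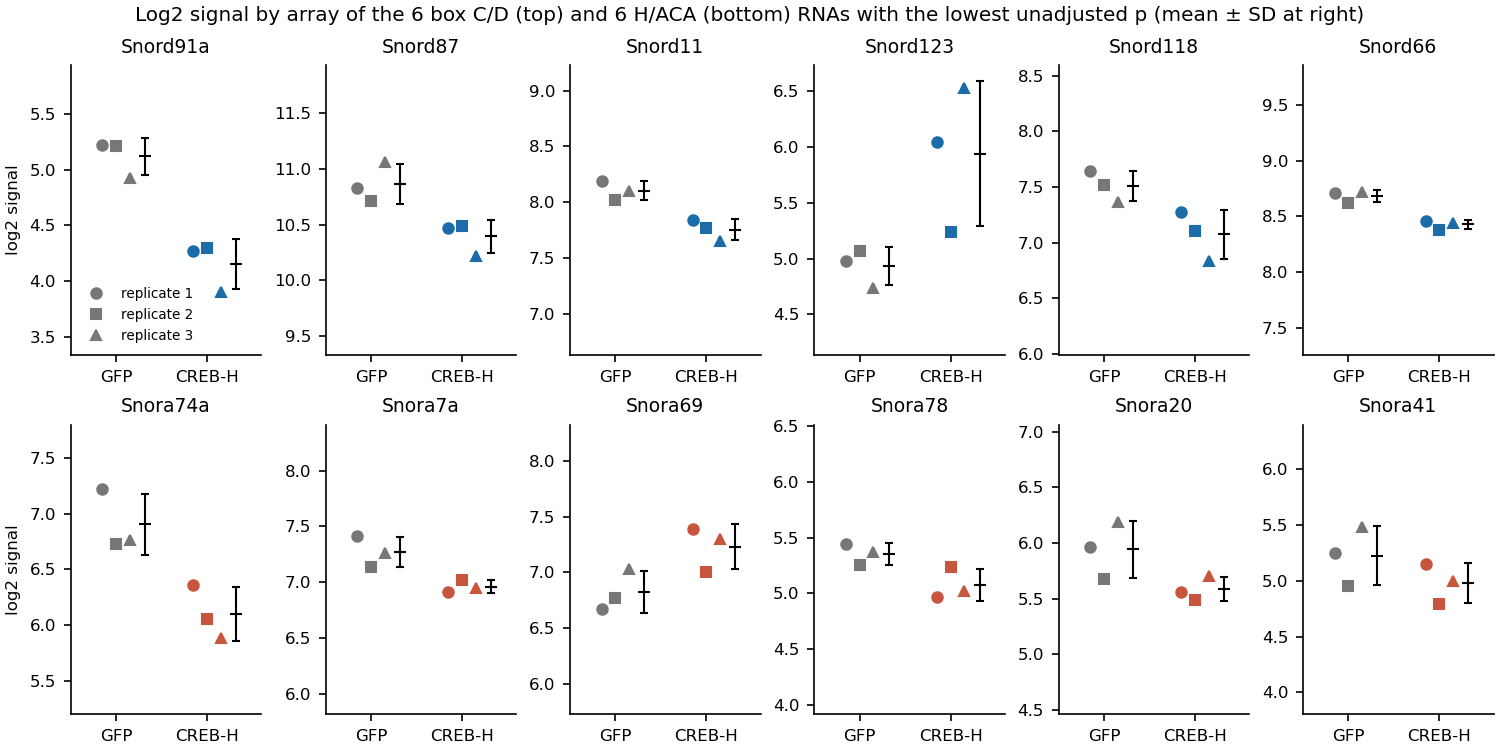
Log2 signal of the 6 box C/D RNAs (top) and 6 H/ACA RNAs (bottom) with the lowest unadjusted p, by group, with replicates 1, 2 and 3 as circle, square and triangle and the mean ± SD (n = 3) at the right of each group; every panel spans the same log2 height around its own mean. The groups do not overlap in the 6 box C/D RNAs or in Snora74a, Snora7a and Snora78, and they overlap in Snora69, Snora20 and Snora41.

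Of the H/ACA RNAs, Snora74a differed most. Snora74a, known as U19, lies in the noncoding gene Snhg4, and its probe set (17349552) read 7.22, 6.73 and 6.76 with GFP and 6.36, 6.05 and 5.88 with CREB-H. Every CREB-H array was below every GFP array. The log2 fold change was -0.81 (SE 0.19, 95% interval -1.25 to -0.37), 1.75-fold lower, with a limma adjusted p of 0.613. It was between -0.95 and -0.65 with any 1 array left out. Snhg4 itself differed by -0.07 (SE 0.15), with arrays of 6.72, 6.79 and 6.38 against 6.45, 6.76 and 6.48. The RNA and the gene around it therefore did not read alike, and their difference was not tested.

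Snora7a, in the ribosomal protein gene Rpl32, read 7.41, 7.14 and 7.26 against 6.91, 7.02 and 6.95 (-0.31, SE 0.11, limma adjusted p = 0.692), and Rpl32 differed by 0.04 (SE 0.11). Snora69, in the X-linked ribosomal protein gene Rpl39, was the one H/ACA RNA higher at an unadjusted p below 0.05. It read 6.67, 6.77 and 7.03 with GFP and 7.39, 7.00 and 7.30 with CREB-H (0.41, SE 0.15, limma adjusted p = 0.693). Its groups overlapped slightly, CREB-H replicate 2 lying just below GFP replicate 3, and Rpl39 differed by -0.03 (SE 0.09). Snora78, Snora20 and Snora41 had log2 fold changes of -0.28 (SE 0.12), -0.35 (SE 0.15) and -0.25 (SE 0.17). With GFP replicate 3 left out Snora41 was at -0.12 and Snora20 at -0.23, with GFP replicate 2 left out Snora41 was at -0.39, with CREB-H replicate 2 left out at -0.15, and on the 4 arrays without Y-linked signal Snora41 was at -0.13. Snora20 lies in Tcp1, a chaperonin subunit gene (-0.14, SE 0.10), and Snora41 in Eef1b2, an elongation factor gene (-0.17, SE 0.10). Snora78 lies within the spans of both Rps2 and Snhg9 (0.06, SE 0.10, for Snhg9, and -0.01 on those 4 arrays).

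Of the RNAs that have been linked to lipid handling, 3 are members, and their intervals all included 0. Snord35a, from an intron of Rpl13a, read 10.12, 9.88 and 10.18 with GFP and 9.92, 10.02 and 9.81 with CREB-H, with overlap (-0.15, SE 0.12, 95% interval -0.44 to 0.15). It was -0.09 with GFP replicate 3 or CREB-H replicate 3 left out, -0.24 with GFP replicate 2 left out, and -0.03 on the 4 arrays without Y-linked signal. The 3 probe sets that list Rpl13a together with Snord32a, Snord33 or Snord34 cannot be assigned to 1 gene and are not members. They differed by -0.08 (SE 0.10), -0.20 (SE 0.13) and -0.28 (SE 0.12), the last without overlap and at an unadjusted limma p of 0.047. Snora73a and Snora73b, the 2 copies of U17 in Snhg3, differed by -0.03 (SE 0.19, 95% interval -0.49 to 0.43) and -0.05 (SE 0.23, -0.60 to 0.50). Snora73a read 8.83, 8.21 and 8.43 against 8.40, 8.26 and 8.72. Both copies turned sign with GFP replicate 1 left out (0.14 and 0.13) or CREB-H replicate 2 left out (0.07 and 0.12), and were -0.17 and -0.23 without GFP replicate 2. On the 4 arrays without Y-linked signal both were at -0.19. As copies of 1 RNA in 1 host, they may share probe signal.

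The other RNAs named by the fixed list or for a high mean signal differed by less than 0.3. Snord22, the U22 RNA of 18S ribosomal RNA processing, lies in Snhg1 and differed by -0.11 (SE 0.11), against -0.29 (SE 0.18) for Snhg1. With CREB-H replicate 3 left out these were -0.04 and -0.15, with GFP replicate 1 left out -0.05 and -0.19. Snhg1 was at -0.45 with CREB-H replicate 1 left out, and on the 4 arrays without Y-linked signal Snord22 was at -0.04. Snord47, in Gas5, differed by -0.12 (SE 0.10) without overlap (11.16, 11.03 and 11.09 against 11.02, 10.95 and 10.95). Snord104 (-0.05, SE 0.11), Snord82 (-0.13, SE 0.10), Snora33 (0.04, SE 0.10) and Snora21 (-0.14, SE 0.12) had intervals that all included 0. Snora34 differed by 0.28 (SE 0.21), or 0.10 when GFP replicate 2 was left out and 0.45 when GFP replicate 3 was. Snora21 was at -0.25 when GFP replicate 2 was left out, -0.08 when GFP replicate 3 was, and -0.07 on the 4 arrays. Snord82 was at -0.08 with CREB-H replicate 3 left out. Snord104 was at 0.00 on the 4 arrays, turned sign without GFP replicate 3 (0.03), and Snora33 did so without GFP replicate 2 (-0.02). A further probe set of Snora33 read 6.43, 6.49 and 6.56 against 6.25, 5.90 and 6.40, a difference of -0.30 (SE 0.15), so the 2 probe sets of this gene did not give the same value. Both probe sets of Scarna17 were near 0 (-0.01 and -0.06), and the 2 listed for Snora19 held the same values on all arrays.

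Of the Cajal body RNAs, Scarna10 was higher in every CREB-H array. Scarna10 is a guide for U5 spliceosomal RNA that carries both kinds of box, and it lies in Ncapd2, a condensin subunit gene. It read 8.84, 8.55 and 8.72 with GFP and 8.98, 8.90 and 8.94 with CREB-H (0.24, SE 0.11, limma adjusted p = 0.767). Ncapd2 was also higher without overlap, from 5.30, 5.30 and 5.35 to 5.69, 5.67 and 5.66 (0.35, SE 0.09, limma adjusted p = 0.623). Scarna6, in Atg16l1, had one high GFP array, with 10.60, 9.75 and 9.75 against 10.05, 10.14 and 10.22 (0.10, SE 0.24). Its difference was 0.39 with GFP replicate 1 left out, -0.04 with either other GFP array left out, and -0.08 on the 4 arrays without Y-linked signal. Scarna17 and Scarna8 differed by -0.01 (SE 0.13) and 0.01 (SE 0.14), and Scarna17 was at -0.02 on those 4 arrays.

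Most members lie inside another gene, and their differences could be set beside that gene's. The reference gene table gives no strand, so a gene was taken as the host where its span alone contains the RNA. That was so for 68 members; 6 lay within several genes and 4 within none. A single host with a probe set of its own was measured for 58 members, in 44 host genes. Of the 44 hosts 34 were lower and 10 higher with CREB-H, with a median of -0.10. At an unadjusted p below 0.05 limma gave 6 of 44 lower and 1 higher, against 3.97% and 2.93% of all probe sets, and none passed after adjustment. In 36 of the 58 pairs both the RNA and its host were lower, and in 5 both were higher. In 17 they differed in direction (7 with the RNA lower and 10 with the RNA higher). With 75.6% of all members and 34 of 44 hosts below 0, many pairs would both be lower without any link. A link between RNA and host was not tested.

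Across the 32 box C/D pairs the log2 fold changes of RNA and host had a Pearson correlation of 0.47, and across the 23 H/ACA pairs of 0.07. These correlations are across RNAs of the same 6 arrays and not across independent samples, and some pairs share a host. The box C/D value is raised by Snord123 (1.01) with Snhg18 (0.38), the highest box C/D pair in both RNA and host. That pair stands far from the other points. Without CREB-H replicate 3 its fold changes were 0.72 and 0.03. The correlation without this pair is not given, so the values do not show a difference between the classes. The sources used here do not say which stretch each probe set reads. Signal from an RNA and from the intron around it therefore cannot be told apart. A host's value is from the brightest probe set of its symbol. Whether that probe set reads the gene copy around the RNA was not checked, for Rps3a1 and Rpl39 among others.

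**Figure D4:**
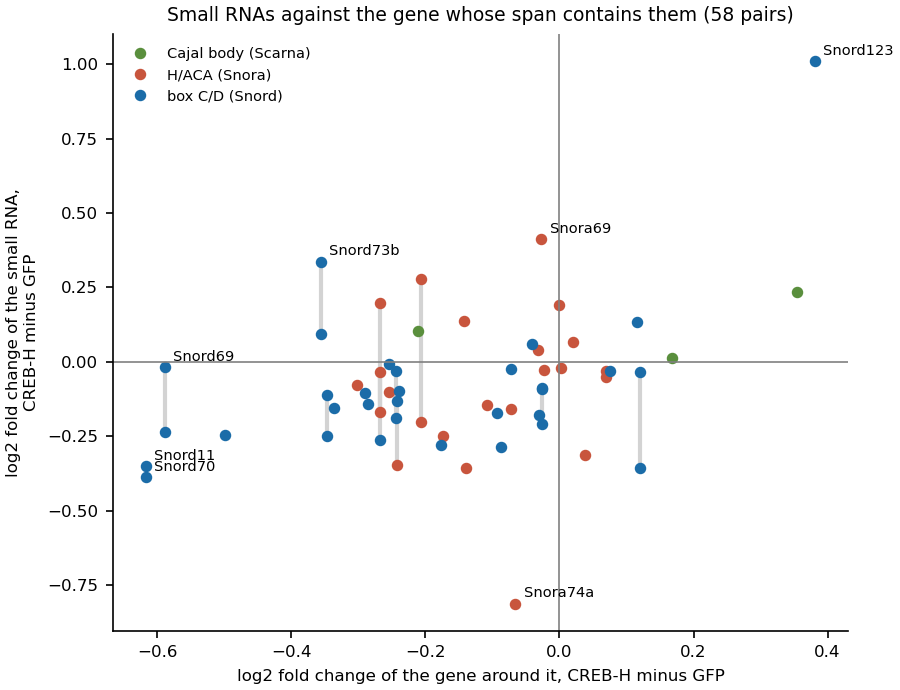
Log2 fold change of 58 small RNAs against that of the gene whose span contains them, CREB-H minus GFP in both, with grey lines joining RNAs of 1 host. Snord11 and Snord70 lie together at lower left with Nop58 (-0.62), while Snora74a (-0.81) lies at a host value of -0.07.

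Members shared a host in 11 genes, 25 members in all, and these RNAs were chosen for description after their values were seen. In 9 of the 11 all RNAs of a host had the same sign. As 59 of all 78 members were below 0, RNAs of different hosts would often share a sign too. The pair in Nop58 was 0.04 apart. The pair in Rps3a1, Snord73a (0.10, SE 0.16) and Snord73b (0.34, SE 0.23), lay above 0 while the ribosomal protein gene differed by -0.36 (SE 0.16). The pair in Gnl3, the nucleostemin gene, was at -0.23 (Snord19, SE 0.17) and -0.02 (Snord69, SE 0.15) while Gnl3 read 9.49, 9.30 and 9.06 against 8.94, 8.62 and 8.52, without overlap (-0.59, SE 0.16, limma adjusted p = 0.647). In Snhg12 the 4 RNAs were spread over both directions: Snora16a was at 0.20 (SE 0.14), Snora61 at -0.03 (SE 0.16), Snora44 at -0.17 (SE 0.16) and Snord99 at -0.26 (SE 0.14). Snord99 had groups without overlap (12.05 to 12.25 with GFP, and the lowest CREB-H array at 11.64) and was -0.14 without CREB-H replicate 2. Snora2b (-0.20, SE 0.15) and Snora34 in Kansl2 also had opposite signs. In Ncl, the nucleolin gene (-0.24, SE 0.11), Snora75 was at -0.35 (SE 0.29) and Snord82 at -0.13.

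The promoters of some host genes are shown because the vector supplies a factor of the CREB family, which binds sites around the letters TGACGT. The RNAs themselves had no sequence in the reference tables, and hosts were matched by symbol. Sequences are from RefSeq, build GRCm38.p6, written 5′ to 3′ on the gene's strand and ending at the base before the annotated start, with TGACGT or its reverse complement ACGTCA in capitals. Nop58 is at chr1:59684906-59685005 (plus strand), Gas5 at chr1:161035066-161035165 (plus), Ncl at chr1:86359456-86359575 (minus), Cct6a at chr5:129787236-129787355 (plus) and Snhg12 at chr4:132308578-132308677 (plus).
Nop58: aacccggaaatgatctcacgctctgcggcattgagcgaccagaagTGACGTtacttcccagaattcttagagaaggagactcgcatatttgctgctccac
Gas5: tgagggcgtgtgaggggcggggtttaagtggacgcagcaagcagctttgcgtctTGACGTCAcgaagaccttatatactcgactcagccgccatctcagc
Ncl: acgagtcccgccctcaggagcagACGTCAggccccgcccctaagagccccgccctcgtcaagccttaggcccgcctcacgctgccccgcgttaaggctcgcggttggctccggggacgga
Cct6a: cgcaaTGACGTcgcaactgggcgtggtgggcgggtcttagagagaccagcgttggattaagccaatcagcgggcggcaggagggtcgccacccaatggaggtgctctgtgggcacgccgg
Snhg12: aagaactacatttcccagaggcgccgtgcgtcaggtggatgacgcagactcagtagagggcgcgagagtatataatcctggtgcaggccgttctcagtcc

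The match begins 55 bases before the start of Nop58, 46 before that of Gas5, where both strands' matches overlap in the palindrome TGACGTCA, 97 before that of Ncl and 115 before that of Cct6a. Snhg12 shows a host with 4 members and no match in this stretch. Over windows from 250 bases before to 50 after the start, searched on both strands, 10 of 54 windows of genes that contain a member held the letters (18.5%), against 7.51% of all 32851 windows in the table. The palindrome TGACGTCA was in 2 of the 54 windows (3.7%), against 1.79% of all windows. Windows of like base content or of like genes were not compared. A match is a description of letters and not of binding, and action of CREB-H on these genes was not tested. Of the 10 genes with a match 8 had a probe set of their own, and all 8 log2 fold changes were below 0. They were -0.62 (Nop58), -0.30 (Cct6a, SE 0.11), -0.25 (Rpsa), -0.24 (Ncl), -0.09 (Eef2), -0.07 (Eif3a), -0.03 (Rpl4) and -0.02 (Tpt1). Eef2, Eif3a, Rpl4 and Tpt1 differed by less than their SE. Over all measured hosts 34 of 44 were below 0, and Snhg12, without a match, was at -0.27 (SE 0.14).

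The proteins and factors that make and use these RNAs were described from lists of general knowledge, and no member of any list passed over all probe sets. All 3 measured box C/D core proteins were lower (median -0.24), with Nop58 above, Nop56 at -0.24 (SE 0.13) and Snu13 at -0.15 (SE 0.10). The median is Nop56's own value and depends on the probe set used, since the mean of the probe sets of Nop56 differed by -0.05. The 4 H/ACA core proteins had a median of -0.04, with Gar1 at -0.16 (SE 0.12, and -0.07 without GFP replicate 1) and Nop10 at -0.05 (SE 0.10). Of 14 assembly and Cajal body factors 10 were lower (median -0.09). Ruvbl1, an ATPase of the complex that assembles box C/D particles, had tight groups of 7.39, 7.46 and 7.39 against 6.87, 6.87 and 6.91 (-0.53, SE 0.09, limma adjusted p = 0.555), and Znhit6, a box C/D assembly factor, was at -0.27 (SE 0.18), or -0.10 without GFP replicate 3 and -0.15 without CREB-H replicate 2.

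Of 12 genes of RNA polymerase I and ribosomal RNA processing 10 were lower (median -0.21), with Utp20 of the small-subunit processome at -0.35 (SE 0.11) and Ncl at -0.24. The 7 trimming and decay enzymes had a median of -0.07, with the exosome nuclease Dis3 at -0.24 (SE 0.12) and Xrn1 at -0.11 (SE 0.10). Of 18 noncoding host genes 12 were lower (median -0.14), 2 of them at an unadjusted p below 0.05, against 3.97% of all probe sets: Rian, the host of box C/D RNAs at the imprinted Dlk1-Dio3 locus (-0.67, SE 0.22), and Snhg7 (-0.26, SE 0.10). Of 29 protein-coding host genes 25 were lower (median -0.17, against -0.015 for all probe sets), 4 of the 29 at an unadjusted p below 0.05, against 3.97% of all probe sets. Among them were Cct6a and Hspa8 (-0.33, SE 0.11, and -0.52 as the mean of its probe sets). The protein-coding list shares Ncl, Npm1, Nop56 and Dkc1 with other lists here. Both host lists also share genes with the 44 hosts above, such as Snhg1, Cct6a and Wdr43, so these counts are not separate results. The 8 other structural RNAs had a median of -0.16, with Rnu12 of the minor spliceosome at -0.17 (SE 0.10) and Terc, the telomerase RNA, which is itself an H/ACA RNA, at -0.18 (SE 0.17), or -0.01 without CREB-H replicate 3 and 0.04 on the 4 arrays without Y-linked signal.

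No gene named Snord113, Snord114, Snord115 or Snord116 was among the members. Many of the 46 probe sets left out list Snord116l1 and Snord116l2 together with Gm26504. These all held the same values on every array (-0.12, SE 0.24), so the 46 are not all separate measurements. Of 7 RNAs named by accessions that begin with AF357 or DQ267, 3 were lower at an unadjusted p below 0.05 and without overlap, against 3.97% and 7.10% of all probe sets by these measures, and none passed after adjustment. AF357355 read 7.54, 6.90 and 6.18 against 4.76, 5.21 and 5.15, and AF357425 read 5.02, 5.47 and 5.34 against 3.94, 4.12 and 4.20, both farther apart than any member.

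**Figure D5:**
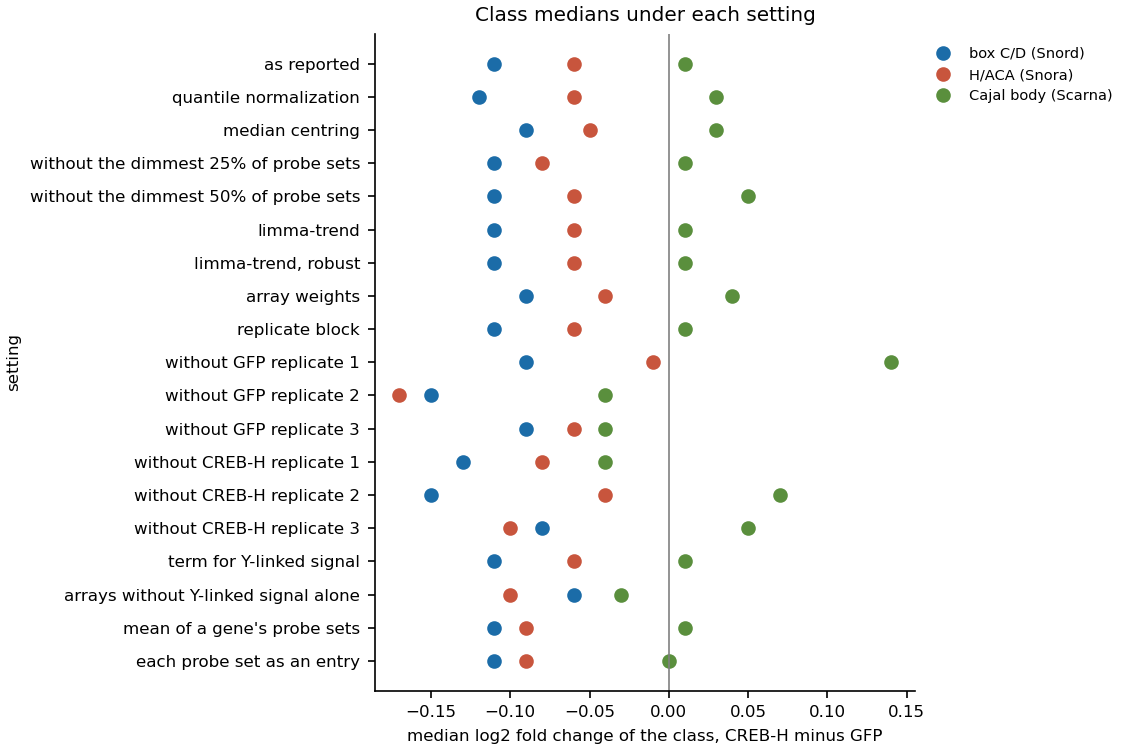
Median log2 fold change of each class, CREB-H minus GFP, in each fit named at the left, with 1 point per class and fit. In these fits box C/D medians lie between -0.15 and -0.06, H/ACA medians between -0.17 and -0.01, and Cajal body medians lie on both sides of 0 (-0.04 to 0.14).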

How the data were processed

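Arrays of 6 livers, 3 per group by title, were analysed. The authors deposited normalized log2 signals for each array; the submitters' processing notes name the Transcriptome Analysis Console without a version. How probes were summarised is not stated in the sources used here, and the scale was read off the values. Detection calls and scan batches were not analysed here. Of 41345 probe sets 23521 had 1 symbol in GEO's platform annotation, 1814 had several and 16010 none. All 78 members matched the RefSeq gene table of GRCm38.p6. That table has no strand, so the planned requirement that a host lie on the same strand could not be applied.

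A group term was fitted to all probe sets with limma (version 3.58.1, R 4.3.3; lmFit, eBayes), two-sided, with Benjamini-Hochberg adjustment and a threshold of 0.05, and was tested on simulated data. Members, lists and rules were chosen with earlier results of these data known. Named were 12 measured members of a fixed list, the 6 Snord, 6 Snora and 2 Scarna with the lowest unadjusted p, the 3 brightest and the 3 largest fold changes of Snord and of Snora, 2 genes per list, and hosts. Other members were named after their values were seen. Alternatives were 2 scalings, filters on dim probe sets, limma-trend, array weights, a replicate block, other uses of a gene's probe sets, each array left out, and Y-linked signal. A planned search for the C box in the RNAs was not run, as no sequence of theirs was at hand.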

Additional observations from a re-analysis of the deposited data

How the results depend on the processing

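No member passed adjustment in any fit that was tested (lowest limma adjusted p of a named member 0.215); averaging the probe sets of a gene gave values with no test. The box C/D and H/ACA medians were below 0 in every fit. With 1 array left out, medians ran from -0.15 to -0.08 (box C/D), -0.17 to -0.01 (H/ACA) and -0.04 to 0.14 (Cajal body), and the H/ACA minus box C/D gap from -0.01 to 0.12. Members lower at an unadjusted p below 0.05 numbered 4 to 10 and higher 1 to 4, against 3 and 1 on the 4 arrays without Y-linked signal. Same-numbered arrays deviated together with correlations of 0.0785, 0.127 and 0.330, and GFP replicate 1 correlated best with CREB-H replicate 2, so the numbers were not taken as pairs. A replicate block left 7 members lower and 2 higher, and medians of -0.11, -0.06 and 0.01.

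Of the 28 named members 7 turned sign with some array left out, and 15 moved by a factor above 1.5. With 1 array left out, Scarna17 ran from -0.08 to 0.11, Scarna2 from -0.20 to 0.02, Scarna6 from -0.04 to 0.39, Snora33 from -0.02 to 0.08, Snora73a from -0.17 to 0.14, Snora73b from -0.23 to 0.13 and Snord104 from -0.09 to 0.03. Among hosts, Mcmdc2 ran from -0.14 to 0.06, Rpl32 from -0.02 to 0.10, Rps12 from -0.06 to 0.00, Snhg3 from -0.36 to 0.47, Snhg4 from -0.19 to 0.02 and Srr from -0.04 to 0.32. On the 4 arrays without Y-linked signal, Scarna6 (-0.08), Snhg18 (-0.07), Snhg3 (-0.51), Snhg9 (-0.01), Snord104 (0.00) and Terc (0.04) turned sign. Scarna17 turned sign with quantile normalization (0.02), median centring (0.01) and array weights (0.01), Snhg3 with array weights (-0.05), and Snora33 as the mean of its probe sets (-0.13). The cause of these changes was not tested. Signal over background was not analysed here.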
